A study of Mus musculus with 2 samples.

Results

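The 10 genes described here encode the TGF-β ligands (Tgfb1, Tgfb2 and Tgfb3), their receptors (Tgfbr1, Tgfbr2 and Tgfbr3) and proteins that process or hold latent TGF-β (Furin, Ltbp3, Lrrc32 and Nrros). They were found by symbol, and all 10 were listed among the 23282 rows of the expression tables. Naïve CD4+ T cells from the spleens of C57BL/6 mice (genotype WT) were activated through CD3 and CD28 under Treg-inducing conditions (recombinant human TGF-β1, IL-2, and antibodies to IFN-γ and IL-4), with DMSO as vehicle (control) or with 10 μM Tubastatin A (TSA), an inhibitor of HDAC6. RNA was taken on day 1, and 1 library was sequenced per condition, so no difference below has a replicate check and no p-value is given. The genes were chosen with their difference between these libraries known, so their values describe the libraries and do not test the treatment.

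TGF-β is made as a precursor that furin, a proprotein convertase, cuts into a mature ligand and a propeptide. The propeptide stays wrapped around the ligand and keeps it latent until integrins or proteases release it. GARP, the product of Lrrc32, holds latent TGF-β on the surface of activated Treg cells, and its relative NRROS does so mainly on myeloid cells. Latent TGF-β binding proteins such as LTBP3 tie it to the extracellular matrix. The free ligand binds TGFBR2, the type II receptor, which then phosphorylates TGFBR1, the type I receptor, while betaglycan (TGFBR3) presents the ligand to both. In naïve CD4+ T cells this signal, through SMAD proteins, helps to induce Foxp3, and cultures of the kind used here are given the ligand from outside.

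The sequences that furin and integrins are known to recognise are shown for the 3 ligands. In the coding sequences of GENCODE M21 on GRCm38 (mm10), 1 stretch in each ligand encoded arginine, any residue, lysine or arginine, and arginine, the pattern that furin cuts. These 4 codons are in capitals below, each with its flanking codons.
Tgfb1: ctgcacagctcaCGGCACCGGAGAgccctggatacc
Tgfb2: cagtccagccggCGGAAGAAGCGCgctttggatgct
Tgfb3: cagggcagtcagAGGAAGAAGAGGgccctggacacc
The Tgfb1 stretch lies at chr7:25697223-25697258 on the plus strand, in exon 5 of 7, the Tgfb2 stretch at chr1:186630624-186630659 on the minus strand, in exon 6 of 8, and the Tgfb3 stretch at chr12:86062042-86062077 on the minus strand, in exon 5 of 7. Counted from the start codon, the patterns end at codons 278, 330 and 300, and in all 3 genes 112 codons follow, which encode the mature ligand. Codons for arginine, glycine and aspartate, the motif that αv integrins bind in the propeptide, occurred 1 time in Tgfb1 and 1 time in Tgfb3. They are shown in capitals.
Tgfb1 integrin motif: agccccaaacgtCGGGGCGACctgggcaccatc
Tgfb3 integrin motif: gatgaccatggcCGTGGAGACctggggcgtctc
These lie at chr7:25697130-25697162 and at chr12:86062153-86062185, both in exon 5. The Tgfb2 coding sequence held 0 such motifs. Over aligned bases the coding sequences were 67.7% identical between Tgfb1 and Tgfb2, 68.6% between Tgfb1 and Tgfb3, and 66.4% between Tgfb2 and Tgfb3.

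The libraries were made from transcript 3′ ends and held 10846171 reads (control) and 10432643 reads (TSA) on listed genes. All 7 T cell markers examined (Cd3e, Cd3d, Cd3g, Cd4, Cd28, Foxp3 and Il2ra) were present, with between 602 and 8851 reads in the control library and between 794 and 7511 in the TSA library. The deposited values are log2 of a normalized count plus 1, and the reads behind them were recovered from their steps. Differences are given as the TSA value minus the control value on this log2 scale, or as the fold change it gives, and a gene counted as tested when at least 1 library held 10 reads of it. By this rule 8 of the 10 genes were tested, and Tgfb2 and Tgfb3 were not. The 95% intervals are exact (Clopper-Pearson), come from the reads alone and cover counting error only. In the text, "higher" and "lower" are used of a gene where this interval excluded no change under the deposited scaling. Counts of genes past 2-fold rest on the fold change alone. As the reads come from transcript 3′ ends, read counts were not divided by length when genes were compared. PCR copies could not be told apart, and whether all genes were captured equally was not tested. Comparisons between genes therefore describe reads.

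Of the 8 tested genes, Lrrc32, which encodes GARP, differed most. The control library held 269 of its reads and the TSA library 68, log2 values of 8.08 and 6.10. The level was lower in TSA-treated Treg cells by 3.95-fold (95% interval 3.05 to 5.29), a log2 difference of -1.98. In bulk RNA, fewer cells with a transcript and less transcript per cell cannot be told apart. Lrrc32 was the single gene of the 8 that passed 2-fold, the threshold used by the study. Of the 12164 tested rows, 14.7% passed it, and 3.15% did so in the lower direction, as Lrrc32 did. Of all 12164 tested rows, 76 had a lower log2 difference than Lrrc32. In the 9399 rows that averaged 50 or more normalized counts, 1.5% passed 2-fold in the lower direction, and 7 had a lower log2 difference than Lrrc32. In GENCODE M21, Lrrc32 is a protein-coding gene on the plus strand at chr7:98489283-98502181, and the transcript with the longest coding sequence has 3 exons and 1992 coding bases.

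**Figure D1:**
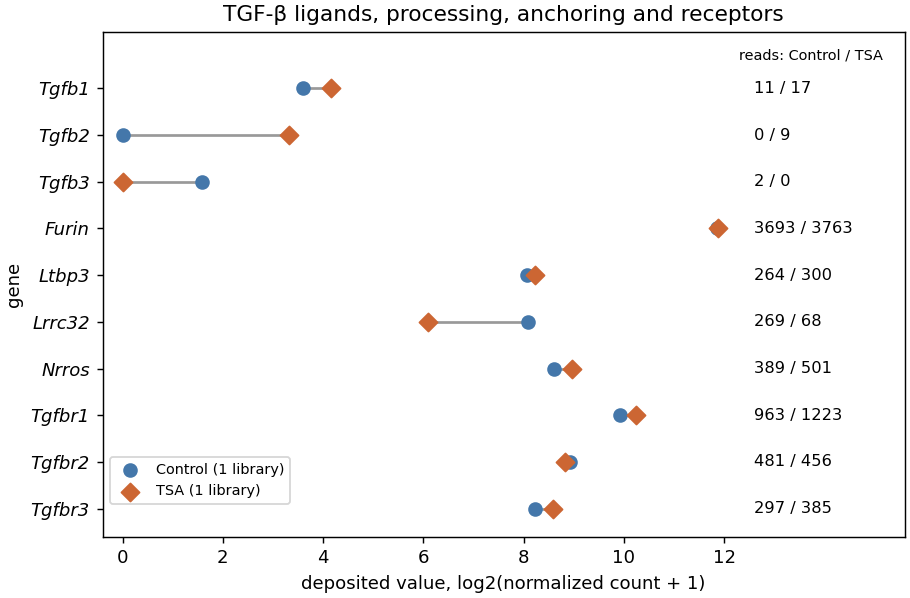
Deposited value of each of the 10 genes (x axis, log2 of the normalized count plus 1) in the control library (circles) and the TSA library (diamonds), with the reads of each library printed at the right. Lrrc32 lies at 8.08 in the control and 6.10 in the TSA library, whereas Furin, Tgfbr2 and Ltbp3 have nearly overlapping points, and the 3 ligand genes have 17 reads or fewer in each library.

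Nrros, whose product is the closest relative of GARP among these proteins, differed in the other direction. The reads numbered 389 in the control and 501 in the TSA library, log2 values of 8.61 and 8.96. The level was higher in TSA-treated cells, with a fold change of 1.27 (1.11 to 1.46). The coding sequences of Lrrc32 and Nrros were 64.4% identical over 1869 aligned bases. Lrrc32 made up 40.9% of the reads of this pair in the control library (exact binomial 95% interval 37.1% to 44.75%) and 11.95% in the TSA library (9.4% to 14.9%), a share examined after the values were seen. Nrros lies on the minus strand at chr16:32142785-32165594.

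Ltbp3, which binds latent TGF-β and ties it to the matrix, had 264 control reads and 300 TSA reads. Its fold change was 1.13 (0.95 to 1.33), and the interval included no change. Ltbp3 lies on the plus strand at chr19:5740904-5758532.

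Furin had the most reads of the 10 genes, 3693 in the control and 3763 in the TSA library. Its fold change was 1.01, and the interval of 0.964 to 1.06 was the narrowest of the set. Furin lies on the minus strand at chr7:80388585-80405436. Of the other proprotein convertases, a list of 8 genes of which 4 were tested, 0 passed 2-fold, beside 14.7% of all tested rows. The median log2 difference was -0.18, against 0.01 for all tested rows, and it was 0.03 over the genes with any read and -0.35 over those that averaged 50 or more normalized counts. Pcsk4 had 129 and 83 reads (fold change 0.64, 0.478 to 0.846) and Pcsk7, which is widely expressed, had 196 and 155 (0.784, 0.63 to 0.972), so both were lower. With upper-quartile scaling, or scaling by total reads, the interval of Pcsk7 included no change (0.662 to 1.02 by total reads). Mbtps1, the site-1 protease that acts on membrane-bound transcription factors, had 1060 and 1092 reads and a fold change of 1.02 (0.937 to 1.11).

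The receptors did not move together. Tgfbr1, the type I receptor kinase, had 963 control reads and 1223 TSA reads and was higher, with a fold change of 1.26 (1.15 to 1.37). Tgfbr2, the ligand-binding type II receptor, had 481 and 456 reads, a fold change of 0.939 whose interval of 0.824 to 1.07 included no change. Tgfbr3, which encodes the coreceptor betaglycan, had 297 and 385 reads and was higher, with a fold change of 1.28 (1.1 to 1.5). As a result, Tgfbr1 made up 66.7% of the reads of the type I and type II receptor genes in the control library (64.2% to 69.1%) and 72.8% in the TSA library (70.65% to 74.96%). The share of Tgfbr3 among the reads of all 3 genes was 17.1% (15.3% to 18.9%) and 18.7% (16.99% to 20.4%), with overlapping intervals. The genes lie at chr4:47353222-47414931 on the plus strand (Tgfbr1), chr9:116084293-116175360 on the minus strand (Tgfbr2) and chr5:107106570-107289629 on the minus strand (Tgfbr3).

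**Figure D2:**
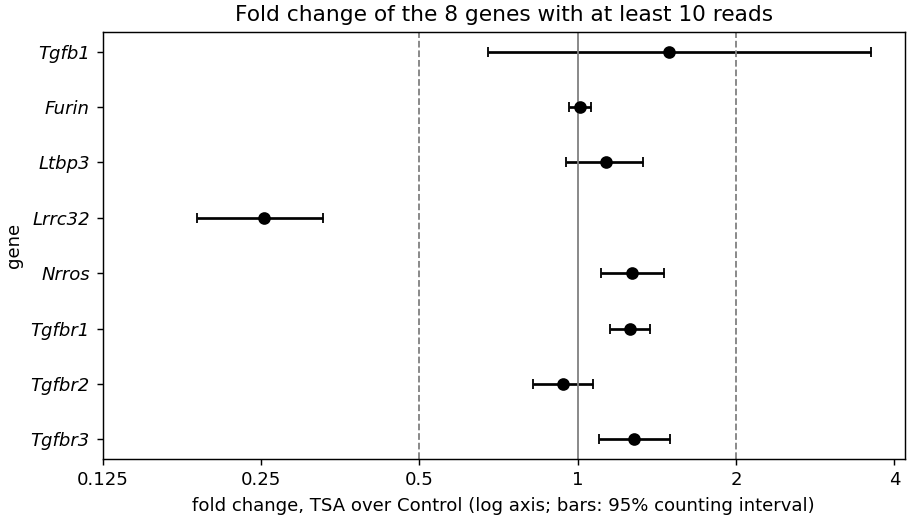
Fold change (x axis, TSA over control, log axis) of the 8 genes with at least 10 reads in a library, where points are the deposited difference and bars the exact 95% counting interval. Lrrc32 lies at 0.253, left of the dashed line at 0.5, while the bars of Nrros, Tgfbr1 and Tgfbr3 lie between 1.1 and 1.5 and those of Tgfb1, Furin, Ltbp3 and Tgfbr2 cross 1.

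The ligand genes were close to the limit of detection. Tgfb1, the isoform that T cells are known to make, had 11 control reads and 17 TSA reads, a fold change of 1.49 with an interval of 0.676 to 3.61, so that a difference was not detectable at this depth. Tgfb2 had 0 reads in the control library, which allows up to 3 reads, or 0.277 on the CPM scale, on which each library's reads are scaled to a common total, and 9 reads with TSA. Set against 3 control reads, Tgfb2 was at least 2.97-fold higher in TSA-treated cells, on fewer reads than the minimum for testing, while its counting interval began lower, at 1.95-fold. Tgfb3 had 2 and 0 reads, within the floor of 3 reads in both libraries, and no fold change is given. Tgfb1 made up 11 of 13 ligand reads in the control library (84.6%, 54.55% to 98.08%) and 17 of 26 in the TSA library (65.4%, 44.3% to 82.8%). The 3 genes together came to a CPM of 1.2 and 2.49. The recombinant TGF-β1 in the medium is a protein and adds no reads. Tgfb1 lies at chr7:25687002-25705077 on the plus strand, Tgfb2 at chr1:186622792-186705989 and Tgfb3 at chr12:86056745-86079041, both on the minus strand.

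In the control library the order of read counts was Furin, Tgfbr1, Tgfbr2, Nrros, Tgfbr3, Lrrc32, Ltbp3, Tgfb1, Tgfb3 and Tgfb2. Neighbours differed by more than counting error except for Tgfbr3 and Lrrc32 (ratio 1.1, 0.933 to 1.31), Lrrc32 and Ltbp3 (1.02, 0.857 to 1.21), and Tgfb3 and Tgfb2. In the TSA library Lrrc32 stood below Ltbp3 (300 reads against 68, a ratio of 4.41 with an interval of 3.38 to 5.83) and still above Tgfb1 (a ratio of 4.0, 2.32 to 7.26). Nrros stood next to Tgfbr2 there, and their ratio of 1.1 had an interval of 0.966 to 1.25. Tgfb1 and Tgfb2 did not differ by more than counting error in the TSA library (1.89, 0.796 to 4.81). Furin exceeded Tgfbr1 by 3.83-fold in the control library and by 3.08-fold in the TSA library.

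For the 8 tested genes together, 3 were higher and 1 was lower by more than counting error, and the intervals of the other 4 included no change. With the libraries scaled by total reads, Furin was higher as well, with an interval of 1.01 to 1.11. Of all tested rows, 28.1% were higher and 28.0% were lower by this measure. The median log2 difference of the 8 genes was 0.25, against 0.01 for all tested rows. The 7 genes other than Lrrc32 had log2 differences between -0.09 and 0.57.

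**Figure D3:**
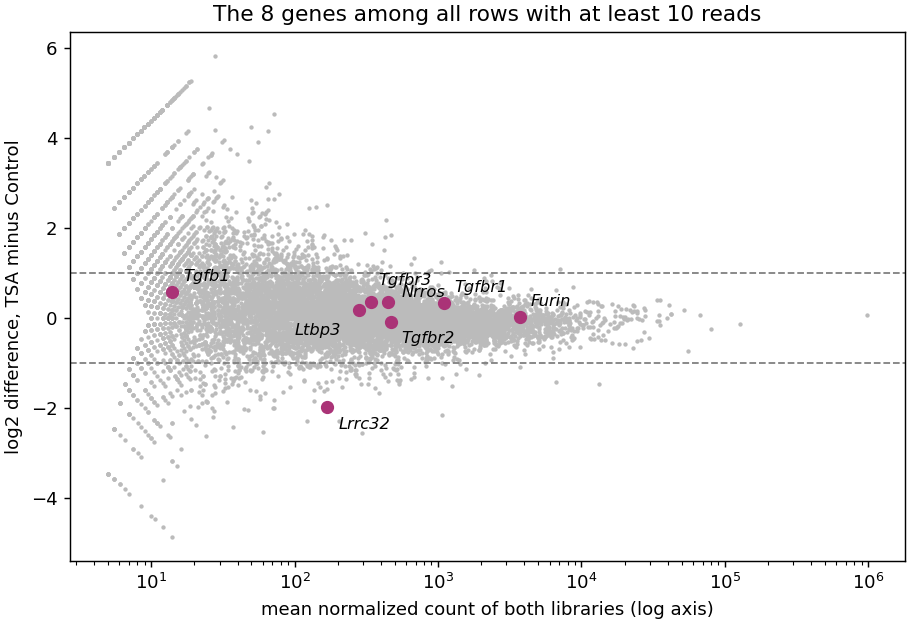
Log2 difference (y axis, TSA minus control) against the mean normalized count of both libraries (x axis, log axis) for the 12164 rows with at least 10 reads in a library (grey), with the 8 genes in colour and dashed lines at 2-fold. Lrrc32 lies at -1.98, below nearly all rows of similar level, and the other 7 genes lie inside the dashed lines.

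Other genes of the pathway were examined as lists. Across all tested rows, 1032 reached the minimum of 10 reads in the TSA library alone and 223 in the control library alone. Among the 1400 rows past 2-fold in the higher direction, 876 reached it in the TSA library alone. Rows without a read numbered 9588 in the control and 8288 in the TSA library. Higher TSA values of genes with few reads were therefore not particular to these lists. Of 26 further ligands of the superfamily (activins, BMPs, GDFs, Nodal and the Lefty proteins), 6 were tested, and 2-fold was passed by 4 in the higher and by 1 in the lower direction, beside 11.5% and 3.15% of all tested rows. All 4 reached the minimum of 10 reads in the TSA library alone, so the filter set their direction, and nothing is read from their number. With 10 reads required in both libraries, 1 gene was left past 2-fold, the lower one, Gdf11, beside 6.85% of all such rows. Gdf11 no longer passed 2-fold with scaling by total reads or upper quartile or with a pseudocount of 5. It was also lost with the whole interval required beyond 2-fold. The median log2 difference of the tested ligands was 3.15 (1.85 with genes lacking control reads set at their bound), but -0.03 over those with any read, -0.19 with 10 reads in both libraries and 0.62 in rows that averaged 50 or more normalized counts, so that its sign depended on the filter. Bmp2, Bmp3 and Bmp4, which encode bone morphogenetic proteins, had 0 control reads and 10, 19 and 12 TSA reads, at least 3.3-fold, 6.27-fold and 3.96-fold higher when set against 3 control reads. Their counting intervals began at 2.22-fold, 4.62-fold and 2.75-fold. Lefty1, which encodes a secreted antagonist of Nodal, had 2 and 21 reads (fold change 7.26, 2.54 to 91.5). Bmp7 had 60 and 94 reads (1.54, 1.11 to 2.18), and Gdf11 was lower, with 35 and 17 reads (0.495, 0.253 to 0.882).

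Of 13 other receptors and coreceptors, 9 were tested, and 2-fold was passed by 4 in the higher and by 0 in the lower direction, beside 11.5% and 3.15% of all tested rows. With 10 reads in both libraries 3 passed, beside 6.85% of all such rows (524 in the higher and 223 in the lower direction). Among rows that averaged 50 or more normalized counts 1 passed. The median log2 difference was 0.31, and it was 0.16 over the genes with any read or with 10 reads in both libraries, and 0.01 at the average of 50. Acvr1c, which encodes the type I receptor ALK7, had 3 control reads and 49 TSA reads, a fold change of 12.4 (5.22 to 81.1). Acvrl1, the type I receptor ALK1 known from endothelium, had 22 and 95 reads (4.13, 2.67 to 7.14). Bambi, a decoy receptor without a kinase, had 19 and 70 reads (3.51, 2.17 to 6.42). These 3 were named for the size of their difference, and Acvr1c reached 10 reads in the TSA library alone. Of the genes named for their level, Bmpr2, the type II BMP receptor, had 434 and 544 reads (1.24, 1.09 to 1.41), Acvr2a, a type II activin receptor, had 299 and 232 (0.769, 0.644 to 0.915), and Eng, which encodes the coreceptor endoglin, had 332 and 338 (1.01, 0.864 to 1.18). In rows that averaged 50 or more normalized counts, 2.96% passed 2-fold in the higher direction.

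Genes for the storage and activation of latent TGF-β numbered 22, of which 12 were tested. In the higher direction 5 passed 2-fold and in the lower direction 0, beside 11.5% and 3.15% of all tested rows, and the interval of 1 of the 5, Plau, included no change (4 and 10 reads, fold change 2.18, 0.714 to 10.8). All 5 reached 10 reads in the TSA library alone, so that their direction was set by the filter. With 10 reads in both libraries 0 were left, beside 6.85% of all such rows. The median of the log2 differences was 0.71, against 1.12 over the genes with any read, 0.01 with 10 reads in both libraries and -0.14 in rows that averaged 50 or more normalized counts. Fbn2 and Fn1, which encode the matrix proteins fibrillin-2 and fibronectin, had 4 and 46 reads (fold change 9.3, 4.16 to 43.6) and 3 and 33 reads (8.41, 3.42 to 55.5). Ltbp4 had 4 and 33 reads (6.73, 2.91 to 31.7). Itgav, which encodes the αv integrin subunit that binds the motif shown above for Tgfb1 and Tgfb3, was lower, with 437 and 234 reads (0.531, 0.45 to 0.623), and did not pass 2-fold. Itgb1, the β1 subunit, had 1123 and 1113 reads (0.981, 0.902 to 1.07). Hsp90b1, which encodes gp96, a chaperone needed to fold integrins and GARP, had 5445 and 5000 reads (0.909, 0.875 to 0.945).

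Among 18 receptor adaptors and turnover factors, 16 were tested, 1 passed 2-fold in the higher and 0 in the lower direction, beside 11.5% and 3.15% of all tested rows, and the median of their log2 differences was 0.02. The gene past 2-fold was Nedd4l, a ubiquitin ligase that acts on activated SMADs and on TGFBR1, with 114 and 300 reads (fold change 2.59, 2.09 to 3.26). Zfyve16, an endosomal adaptor, was lower, with 81 and 41 reads (0.507, 0.336 to 0.738), and so was Uchl5, a deubiquitinase, with 1262 and 976 (0.766, 0.704 to 0.833). Map3k7, which encodes the kinase TAK1, was higher (1.22, 1.13 to 1.33), and Strap, an adaptor that binds the receptors and SMAD7, was lower (0.811, 0.767 to 0.858). Fkbp1a, which encodes the FKBP12 that binds the resting type I receptor, had 10490 and 10369 reads (0.979, 0.952 to 1.01), and its interval lay just above no change with scaling by total reads. Of 11 tested SMADs and SMAD corepressors, 0 passed 2-fold, beside 14.7% of all tested rows, and the median log2 difference was -0.04. Smad3, which carries the signal of TGFBR1, was higher (469 and 693 reads, 1.46, 1.3 to 1.65), as were Tgif1 (1.19, 1.06 to 1.33) and Ski (1.09, 1.02 to 1.17), both corepressors, and Smad2 was lower (355 and 299 reads, 0.835, 0.713 to 0.975). The interval of Smad2 included no change when scaled by total reads (0.748 to 1.02) or with upper-quartile scaling.

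A list of 12 genes known to respond to TGF-β, chosen from textbook knowledge, had 8 tested genes, of which 1 passed 2-fold in the higher and 0 in the lower direction, beside 11.5% and 3.15% of all tested rows. The median log2 difference was -0.19, and -0.4 over the genes with any read. By counting error 2 were higher and 4 lower, where 28.1% and 28.0% of all tested rows were. Foxp3, the lineage factor of Treg cells, was lower, with 1633 and 965 reads (fold change 0.586, 0.54 to 0.634). Cdkn1a, the cell cycle inhibitor p21, had 1388 and 833 reads (0.595, 0.545 to 0.648), Pmepa1, a feedback inhibitor of TGF-β signalling, had 8328 and 5808 (0.691, 0.668 to 0.714), and Junb had 2545 and 2136 (0.831, 0.784 to 0.881), so that all 3 were lower. Skil, which encodes the corepressor SnoN, had 1422 and 1394 reads (0.971, 0.901 to 1.05). Itgae, which encodes the integrin CD103, was higher, with 17 and 39 reads (2.2, 1.26 to 4.28). It was the gene past 2-fold, and it no longer passed with a pseudocount of 5, with an average of 50 normalized counts required or with the whole interval required beyond 2-fold. The fold changes of Lrrc32 and Foxp3 were 0.253 and 0.586, with counting intervals of 0.189 to 0.328 and 0.54 to 0.634. Lrrc32 was chosen with its difference known, and a relation between the differences of these genes was not tested.

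**Figure D4:**
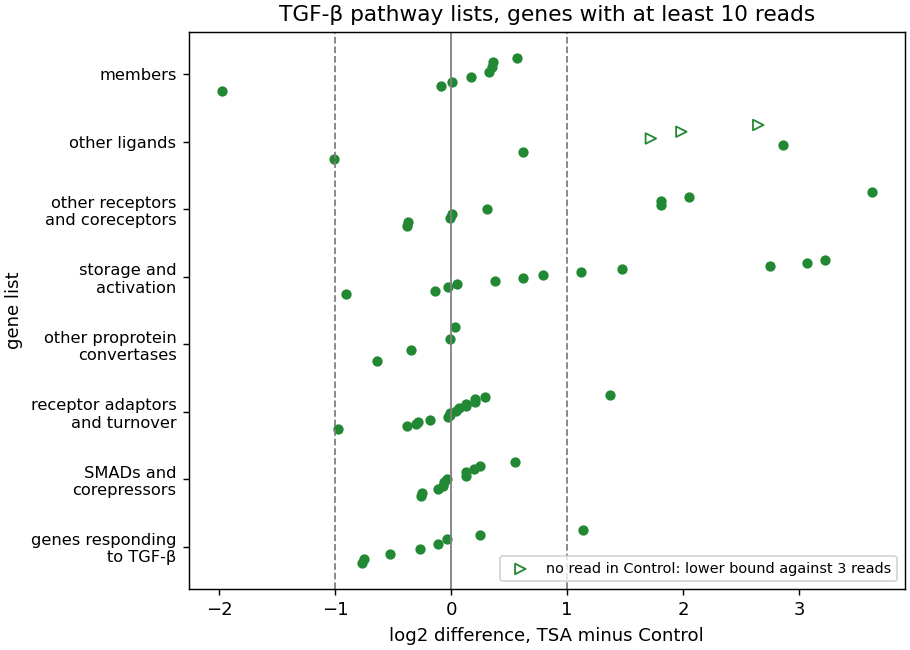
Log2 difference (x axis, TSA minus control) of each gene with at least 10 reads in a library, by gene list (y axis), with open triangles for lower bounds of genes without control reads and dashed lines at 2-fold. Genes past 2-fold lie at the left for Lrrc32 (-1.98) and Gdf11 (-1.01), and at the right mainly for the lists of other ligands, other receptors, and storage and activation.

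Lrrc32 is also known from platelets and endothelium, and Nrros from myeloid cells, so markers of other cell types are given beside their values. Of 5 platelet and megakaryocyte markers, 4 were tested, and all 5 together had 53 control reads and 86 TSA reads, CPM sums of 4.89 and 8.24. Gp1bb had 6 and 33 of these reads, and the other 4 markers had 47 and 53 (Pf4 18 and 24, Ppbp 8 and 11, Itga2b 20 and 15, Gp9 1 and 3). Of 6 stromal and endothelial markers, 2 were tested, with 154 and 265 reads in all, most of them from Pecam1 (144 and 234 reads), and the defining endothelial gene Cdh5 had 0 and 4 reads. The other markers of this list were Col1a1 (1 and 20), Col1a2 (9 and 0), Pdgfra (0 and 7) and Col3a1 (0 in both). Of 9 myeloid markers, 5 were tested, with 154 and 130 reads in all, CPM sums of 14.2 and 12.5. More TSA than control reads were found for Mpeg1 (21 and 24), Tyrobp (11 and 12), Lyz2 (6 and 10), Itgam (7 and 9) and Cd14 (2 and 4), and fewer for Fcer1g (62 and 50), Cd68 (32 and 19), Csf1r (9 and 2) and Adgre1 (4 and 0). B cell markers (5 genes, 1 tested) had 12 and 15 reads in all, with Pax5 at 0 in both libraries, and markers of CD8 T and NK cells (4 genes, 2 tested) had 80 and 88, with Klrb1c at 0 in both. The part of these cells in the values of Lrrc32 and Nrros was not tested.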

How the data were processed

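Conditions (control and TSA, 1 library each) were assigned from the treatment given per the labels. The authors prepared QuantSeq 3′ libraries, read 75 nt from 1 end and used ExDEGA for the analysis. The submitters' processing notes name Bowtie2, bedtools and mm10, and versions, annotation and normalization are not given in the sources used here. The authors deposited 1 log2 value per row and library, found from the values to be log2 of a normalized count plus 1 (pseudocount 1).

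Reads were recovered from steps of 1.005 (control) and 0.9951 (TSA) normalized counts per read. Among rows with 1 to 300 reads, 100.0% and 99.9% lay within 0.1 of a whole number. Control rows without a read, listed at up to 0.016, were read as 0. Above that range reads are known to within the rounding of the deposited value. The floor was 3 reads (a CPM of 0.277 and 0.288). PCR copies could not be told apart, so intervals and floors cover counting error only. No test was run with 1 library per condition.

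Members and lists were chosen with earlier results of these data known. Besides the members, the genes named are, per list and among tested genes, the 3 with the largest difference and the 3 with the highest mean. Plau and the marker genes were named outside this rule, after their values were seen. Genes were matched by symbol, with an older symbol for Ccn2. Positions and coding sequences (longest complete coding sequence per gene) came from GENCODE M21. Overlaps with other annotated genes are not reported here. Alternatives covered scaling, pseudocount, filter and threshold, and the one without a minimum of reads left out rows with 0 reads in both libraries. Steps were checked on simulated data. Python 3.11.15, numpy 2.4.6, pandas 2.3.3, scipy 1.17.1 and matplotlib 3.10.9 were used.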

Additional observations from a re-analysis of the deposited data

How the results depend on the processing

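No paired analysis was possible because each condition had a single library, and leaving out a replicate was not an option either. Each of the 8 tested genes kept the sign of its log2 difference under all 6 alternatives of scaling (total reads, trimmed mean of M-values, median of ratios, upper quartile) and pseudocount (0.1 and 5). The pseudocounts could not change a sign, since the same value is added to both libraries. A scaling shifts all genes alike, so a sign could change only where the difference was smaller than the shift. The log2 shift was -3.3e-05 for the trimmed mean, nearly the deposited scaling, -0.0023 for the median of ratios and 0.043 for the upper quartile. Lrrc32 ranged from -2.0 to -1.91, Tgfbr1 from 0.33 to 0.4, Tgfbr3 from 0.35 to 0.43, Nrros from 0.35 to 0.42, Tgfbr2 from -0.09 to -0.02 and Furin from 0.01 to 0.08. Scaling by total reads gave the largest shift of all genes, 0.07 on the log2 scale. Counting intervals were also recomputed under the 4 scalings, an alternative chosen after seeing the data: 4 of the 8 genes were then higher by total reads (Furin besides the other 3), 3 under each of the other scalings, and 1 was lower under all 4. Without the minimum of 10 reads, 3 of the 10 genes passed 2-fold in place of 1, because Tgfb2 and Tgfb3 then counted. The share of rows past the threshold was 25.7% of those with any read in either library (2817 rows in the higher and 1200 in the lower direction), 6.85% with 10 reads in both libraries (524 and 223), 4.46% where rows averaged 50 or more normalized counts (278 and 141), 27.1% with a 1.5-fold threshold (2279 and 1014) and 5.78% with the whole interval beyond 2-fold (604 and 99). The medians of the adaptor and SMAD lists stayed within 0.1 of 0, on both sides of it. The ligand genes had 17 reads or fewer in each library.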
